A study of Mus musculus with 3 samples.

Results

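The genes described here encode 10 large proteins of basement membranes and related pericellular matrix: the laminin chains Lama2, Lama4, Lama5, Lamb1, Lamb2 and Lamc1, the nidogens Nid1 and Nid2, perlecan (Hspg2) and agrin (Agrn). They were taken by name from a table of 56833 genes, and all 10 are among the 11873 genes whose mean over the libraries reached 50 normalized counts. Gene expression was measured by stranded poly(A) RNA sequencing of mouse ankle synovium cells that carried the Efhd1CreER and Ai9 alleles and had been sorted for the tdTomato reporter of Ai9. The cells, which the labels call telocytes, an interstitial cell type, were kept for 24 h on collagen-coated plates, of which the soft had a stiffness of 0.2 kPa, the intermediate one of 8 kPa and the stiff one of 64 kPa. Every group shared the genotype, the sort and the collagen coat, and the study asked how matrix stiffness bears on differentiation of these cells into fibroblasts. Each level had 1 library, and the number of animals behind it is not given in the sources used here, so differences between cultures cannot be told apart from differences between stiffness levels, and no p-value is given.

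Laminins are cross-shaped trimers of an alpha, a beta and a gamma chain that assemble into a sheet on the cell surface, where integrins and dystroglycan hold them. Nidogens bridge the laminin sheet to the collagen IV network, and perlecan and agrin are proteoglycans that carry heparan sulfate chains and bind growth factors. In the synovium such matrix surrounds blood vessels and nerves, while the lining layer of fibroblasts and macrophages rests on no continuous basement membrane.

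The libraries held 25487064 (soft), 28081600 (intermediate) and 26474862 (stiff) reads. Together the 10 genes took 24314 reads at 0.2 kPa, 36500 at 8 kPa and 41955 at 64 kPa, or 0.0954%, 0.130% and 0.158% of the reads. Of 8 marker genes for telocytes or interstitial cells, Pdgfra stood at 5884, 6298 and 5118 normalized counts at 0.2, 8 and 64 kPa, Foxl1 at 238, 233 and 186, Cd34 at 235, 242 and 318 and Vim at 94005, 103009 and 111934. Nes stood at 169, 291 and 774 and was the only one of the 5 tested that passed the threshold of a log2 ratio of 1, at 2.19 for stiff against soft. The other 3 were low, with 10, 5 and 3 reads for Efhd1, 41, 41 and 44 for Kit and 26, 49 and 50 for Ano1. All 12 macrophage markers were present, with summed levels of 28421, 35333 and 63158 normalized counts in the same order, and each was higher in the stiff than in the soft library. Their part in the differences described below was not tested. Of 8 endothelial markers only Egfl7 had a mean of at least 50, Cldn5 had no read, and the summed level of the list lay between 165 and 205 normalized counts. Of 8 mural cell markers 5 were tested, and the list summed to 2439, 3372 and 3231 normalized counts. Cspg4 made up most of that sum, at 1642, 2496 and 2376. Stiff against soft, 3 of the 5 were higher and 2 lower. All 8 fibroblast markers were tested, 5 higher and 3 lower, from Col1a1 at a log2 ratio of 0.95 to Dcn at -0.44. Of 8 adipocyte markers 6 were tested, 1 higher and 5 lower, and the list summed to 7088, 7017 and 6094 normalized counts. In bulk RNA, more cells of a type and more RNA per cell cannot be told apart.

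All 10 genes had more normalized counts in the stiff than in the soft library. The median log2 ratio, computed with a pseudocount of 1, was 0.63, against 0.00 over all 11873 genes, of which 51.1% were higher in the stiff library. The ratios ran from 0.22 for Agrn to 1.71 for Hspg2, and the exact 95% Clopper-Pearson interval of each lay above 0, which covers counting error only. The same held for 31.3% of all genes. That share, like the shares of intervals given for the other comparisons, is over genes not matched to the 10 in read count. Intervals are narrower at higher counts. Hspg2 and Lama5 passed a log2 ratio of 1 in size, the threshold used here for a called difference, so 2 of 10 genes passed, against 3.6% of all genes in either direction and 3.22% upward. The 2 became 1 with a pseudocount of 10, under each of 3 other scalings and with a trend with transcript length subtracted, and 0 with length and GC content subtracted, where the median fell to 0.30. At a log2 ratio of 0.5 all but Nid1 and Agrn passed upward, which is 8 of 10 genes, against 11.8% of all genes. Transcripts at least as long as the shortest of the 10 passed these limits upward more often than all genes together, at 5.42% for a ratio of 1 and 20.5% for a ratio of 0.5.

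Between the intermediate and the soft library the median log2 ratio of the 10 genes was 0.41, against 0.01 over all genes, and all 10 ratios were positive. The counting interval lay above 0 for 9 genes, all but Lama2, against 21.8% of all genes. Hspg2 alone passed the threshold of 1, against 0.168% of all genes in either direction, and Hspg2, Lama4 and Lama5 passed 0.5 upward, against 3.94% of all genes. The call of Hspg2 was lost when a trend with transcript length was subtracted, at 0.79, and with length and GC content, at 0.34. Between the stiff and the intermediate library the median was 0.33, against 0.01 over all genes. Here 9 genes were higher, with intervals above 0, against 26.3% of all genes, and Agrn was lower, with an interval below 0, against 22% of all genes. None of the 10 passed the threshold, against 1.25% of all genes in either direction, and Hspg2 alone passed 0.5 upward, against 5.42%. The comparisons share libraries, so they are not independent of each other. Over both steps, 9 of 10 genes were higher at each step, which 30.2% of all genes were. With at least 0.5 per step only Hspg2 was higher throughout, against 1.04% of all genes, and it no longer was with length subtracted, where its second step was 0.49, or with length and GC subtracted, where its steps were 0.34 and 0.17.

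**Figure D1:**
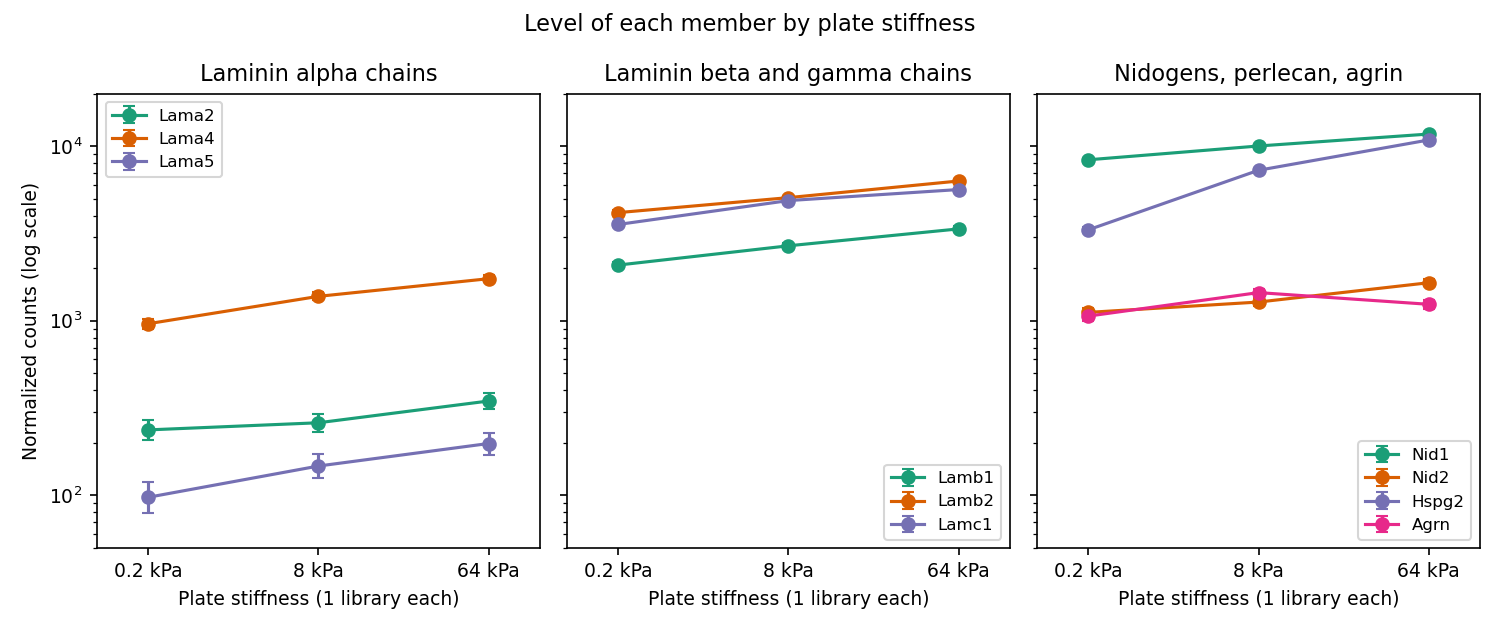
Normalized counts (log axis) of the 10 genes on plates of 0.2, 8 and 64 kPa, 1 library each, with laminin alpha chains on the left, beta and gamma chains in the middle and nidogens, perlecan and agrin on the right; bars are exact 95% Poisson intervals of the reads and are often smaller than the points. Hspg2 climbs from 3313 to 10836.5 normalized counts, Agrn is highest at 8 kPa with 1448, and the other lines have a shallower upward slope.

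Perlecan had the largest stiff to soft difference of the 10 genes before transcript length and GC content were taken into account. Hspg2 (ENSMUSG00000028763) is a gene of chromosome 4 (GRCm39, 137196079 to 137298231, plus strand) with 97 exons and 14502 bases in its canonical transcript. Its level was 3313 normalized counts at 0.2 kPa, 7266 at 8 kPa and 10836.5 at 64 kPa, from 3232, 7708 and 10567 reads. Each library was above the one on the softer plate, and the counting intervals of the levels did not overlap. Stiff against soft, the log2 ratio came to 1.71 (interval 1.65 to 1.77), a fold of 3.27. Once a trend of the ratios with transcript length and GC content, described further on, was subtracted, it was 0.61, below Lama4 at 0.67. The ratio without that subtraction exceeded those of 99.7% of the genes tested, and its interval overlapped none of the other 9 genes. The first step gave a log2 ratio of 1.13 (interval 1.07 to 1.19) and the second 0.58 (interval 0.53 to 0.62), so 66.3% of the log2 difference was present at 8 kPa.

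Agrin, the other heparan sulfate proteoglycan of the group and an organizer of the neuromuscular junction, had a different profile. Agrn (ENSMUSG00000041936) lies on the same chromosome (156249740 to 156282014, minus strand) and has 36 exons in its canonical transcript. Its level was 1062 normalized counts at 0.2 kPa, 1448 at 8 kPa and 1241 at 64 kPa, from 1036, 1536 and 1210 reads. The intermediate library was the highest. The log2 ratio was 0.45 (interval 0.33 to 0.56) for the first step and -0.22 (interval -0.33 to -0.11) for the second, and 0.22 (interval 0.10 to 0.35) for stiff to soft, which turned to -0.46 with length and GC subtracted. It was the only one of the 10 with a maximum at 8 kPa, a shape that 23.2% of all genes had. Per kilobase of canonical transcript, Hspg2 held 1.50 times the level of Agrn at 0.2 kPa, 2.41 times at 8 kPa and 4.19 times at 64 kPa.

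The sequences just upstream of the transcription start are shown for the pair of genes past the threshold, Hspg2 and Lama5, and for Agrn, the only gene that was lower on the stiff than on the intermediate plate. Each is the 250 bases before the start of the canonical transcript, read from GRCm39 on the strand of the gene and holding no annotated exon: chr4:137195829-137196078 (plus) for Hspg2, chr2:179867713-179867962 (minus) for Lama5 and chr4:156282015-156282264 (minus) for Agrn. Capitals mark matches to the motifs searched, which in these 3 windows were all GC boxes.
Hspg2: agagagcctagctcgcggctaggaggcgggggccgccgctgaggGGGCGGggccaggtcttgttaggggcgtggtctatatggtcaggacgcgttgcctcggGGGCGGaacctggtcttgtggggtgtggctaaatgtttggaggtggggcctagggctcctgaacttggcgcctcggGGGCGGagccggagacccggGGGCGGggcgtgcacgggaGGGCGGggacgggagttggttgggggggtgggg
Lama5: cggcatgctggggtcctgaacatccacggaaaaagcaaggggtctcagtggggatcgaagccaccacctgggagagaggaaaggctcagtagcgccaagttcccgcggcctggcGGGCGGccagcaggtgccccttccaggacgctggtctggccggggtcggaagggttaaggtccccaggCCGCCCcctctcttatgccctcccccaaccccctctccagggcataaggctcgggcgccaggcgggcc
Agrn: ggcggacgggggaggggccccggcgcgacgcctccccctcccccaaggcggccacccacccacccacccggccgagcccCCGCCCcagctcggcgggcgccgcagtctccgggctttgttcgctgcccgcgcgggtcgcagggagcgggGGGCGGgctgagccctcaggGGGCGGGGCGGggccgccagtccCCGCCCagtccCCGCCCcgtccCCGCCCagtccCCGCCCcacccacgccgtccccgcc

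The motifs searched on both strands were the GC box GGGCGG, the TEAD site CATTCC, the AP-1 site TGANTCA, the CCAAT box CCAAT and the CArG box, which serum response factor binds; overlapping matches were counted separately. Hspg2 had 5 GC boxes, Lama5 had 2 and Agrn had 8, and 7 of the 10 genes had at least 1, against 50.1% of 11698 windows of the same length. A TEAD site was present in 1 of the 10 windows, that of Nid1, and in 11.5% of all windows. A CArG box was present in 1, that of Lama2, and in 1.17% of all windows, and an AP-1 site in 0 of the 10 and in 4.68% of all. A CCAAT box was present for Lamb1, Nid1 and Nid2, and in 35.9% of all windows. The window of Agrn was 84.0% G and C, that of Hspg2 71.2% and that of Lama5 68.0%, against a median of 56.8% over all windows. Annotated exons covered 250 bases of the window of Lamb1, 167 of Nid2, 65 of Nid1, 43 of Lamb2 and 29 of Lama2. Matches in these windows are thus not all in sequence upstream of the gene. Such matches are letters in a window and not binding sites.

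Among the laminin alpha chains, which carry the main binding sites for integrins and dystroglycan, Lama4 had the highest level per kilobase of transcript. Lama4 (ENSMUSG00000019846; chromosome 10, 38841141 to 38998403, plus strand), a chain typical of vessels and mesenchymal tissue, stood at 961, 1378 and 1739 normalized counts at 0.2, 8 and 64 kPa. Its log2 ratio of stiff to soft was 0.86 (interval 0.74 to 0.97). Lama5 (ENSMUSG00000015647; chromosome 2, 179818166 to 179867712, minus strand), the alpha chain of many epithelial and vascular basement membranes, stood at 97.4, 147 and 198 normalized counts, from 95, 156 and 193 reads. Its log2 ratio was 1.02 (interval 0.66 to 1.39), the widest interval of the 10. Its place above the threshold was lost with a pseudocount of 10, at 0.95, and under 3 other scalings of the libraries, at 0.96 in each of them, and with length or with length and GC subtracted, at 0.67 and 0.044. Lama2 (ENSMUSG00000019899; chromosome 10, 26856032 to 27495754, minus strand), the alpha chain of muscle and peripheral nerve, stood at 237, 260 and 347 normalized counts. Of 8 Schwann cell markers 2 were tested, and they went opposite ways, with Mbp at 120, 156 and 280 normalized counts and S100b at 173, 155 and 114, while Sox10 had 1, 5 and 1 reads. Of 8 skeletal muscle markers only Acta1 was tested, at 168, 297 and 622, and it made up most of the summed level of 182, 318 and 654, while Ckm had 1, 0 and 0 reads. The part of such cells in the level of Lama2 was not tested. For Lama2 the stiff to soft log2 ratio was 0.55 (interval 0.30 to 0.80), and its first step of 0.14 had an interval from -0.12 to 0.39, so no difference between soft and intermediate was detectable at this depth.

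The beta and gamma chains stood above the alpha chains per kilobase of transcript and had overlapping ratios before length and GC were taken into account. Lamb2 (ENSMUSG00000052911; chromosome 9, 108356935 to 108367729, plus strand), the beta chain of the neuromuscular junction and the kidney filter, stood at 4158, 5065 and 6308 normalized counts at 0.2, 8 and 64 kPa. Lamb1 (ENSMUSG00000002900; chromosome 12, 31315030 to 31379658, plus strand), the more widely used beta chain, stood at 2082, 2684 and 3354. Lamc1 (ENSMUSG00000026478; chromosome 1, 153094597 to 153208774, minus strand), the gamma chain shared by most laminins and the one that binds nidogen, stood at 3556, 4873 and 5636. Each of the 3 genes was lowest in the soft and highest in the stiff library. Their log2 ratios of stiff to soft were 0.60 (interval 0.54 to 0.66) for Lamb2, 0.69 (interval 0.61 to 0.77) for Lamb1 and 0.66 (interval 0.60 to 0.73) for Lamc1, and these intervals overlap. With length and GC subtracted the ratios were 0.48 for Lamb1, 0.12 for Lamb2 and 0.10 for Lamc1.

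Per kilobase of canonical transcript the chains can be set side by side, over 5 alpha chain genes, 3 beta chain genes and Lamc1. The alpha chains summed to 194, 269 and 342 normalized counts per kilobase at 0.2, 8 and 64 kPa, the beta chains to 1103, 1370 and 1712, and Lamc1 stood at 448, 614 and 710. Beta chain transcripts thus stood at 5.69, 5.09 and 5.00 times the alpha chains, and Lamc1 transcripts at 2.31, 2.28 and 2.07 times. Lama4 made up 81.9%, 84.7% and 84.0% of the alpha chain level and Lamb2 66.9%, 65.6% and 65.4% of the beta chain level, in the same order. The makeup of the alpha and beta classes therefore moved by only a few percentage points while its sum was higher on each stiffer plate.

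**Figure D2:**
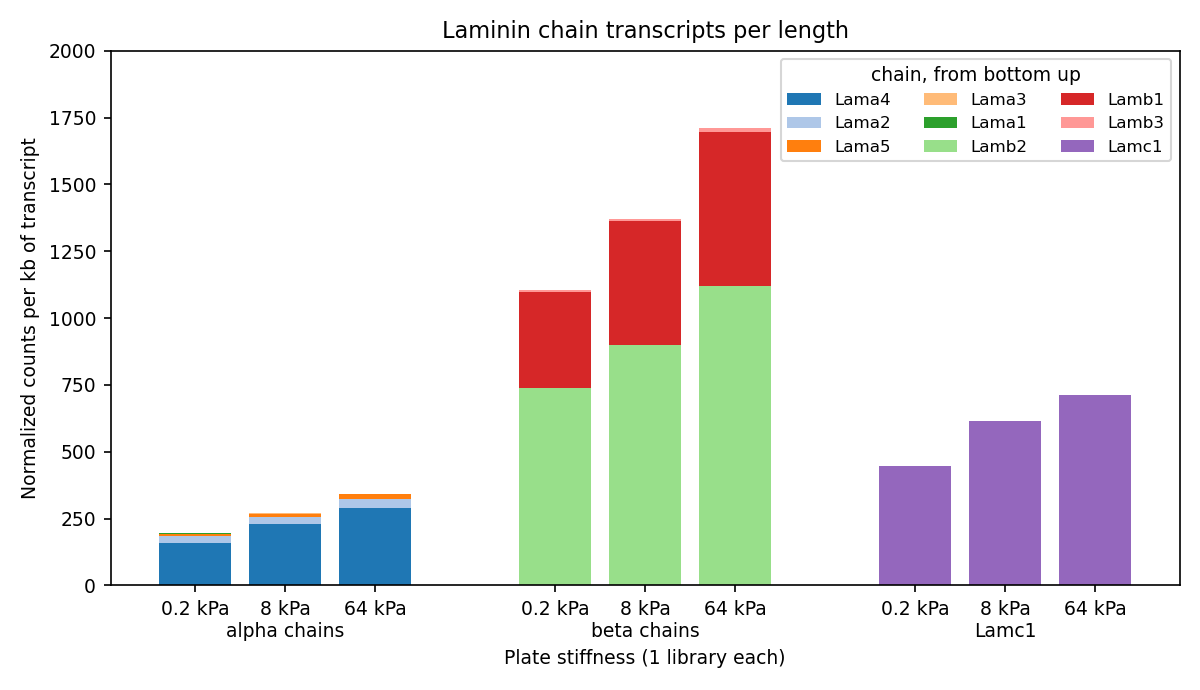
Normalized counts per kilobase of canonical transcript (linear axis from 0) of 5 alpha and 3 beta chain genes, stacked by class, and of Lamc1, by plate stiffness, 1 library each. Lama4 fills most of the alpha bars and Lamb2 with Lamb1 most of the beta bars, and the beta chains reach 1712 in the stiff library, against 342 for the alpha chains and 710 for Lamc1.

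A further 4 laminin chains had low levels. Lamb3, a beta chain of epithelial laminin, stood at 35.9, 46.2 and 81.0 normalized counts at 0.2, 8 and 64 kPa. The reads behind these levels were 35, 49 and 79. Lamb3 passed the threshold at 1.15 (interval 0.58 to 1.79), a call that was lost with length and GC subtracted, at 0.87. Its soft and intermediate levels were each below the minimum mean required for a call. Lamb3 thus reached that minimum only through the stiff library, where it was high. Lamc3 had 26, 43 and 40 reads and Lama3 had 24, 17 and 17, and their stiff to soft intervals included 0. Lama1, the embryonic alpha chain, had 1, 0 and 3 reads, at or under the 3 reads that a count of 0 allows.

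The nidogens had ratios in the lower part of the range. Nid1 (ENSMUSG00000005397; chromosome 13, 13612071 to 13686860, plus strand) had the highest level of the 10 genes, also per kilobase, at 8344, 10009 and 11716 normalized counts at 0.2, 8 and 64 kPa. Nid2 (ENSMUSG00000021806; chromosome 14, 19801298 to 19861855, plus strand) stood at 1115, 1278 and 1649. Both were lowest in the soft and highest in the stiff library. The stiff to soft log2 ratios were 0.49 (interval 0.45 to 0.53) for Nid1 and 0.56 (interval 0.45 to 0.68) for Nid2, and these overlap. Nid2 had a smaller ratio in the first step, at 0.20 (interval 0.08 to 0.31), than in the second, at 0.37 (interval 0.26 to 0.47), while Nid1 had 0.26 and 0.23. Exons of Rtraf on the opposite strand overlap 715 bases, or 14.6%, of the canonical Nid2 transcript, the largest such overlap among the 10 genes. Whether the counting used strand is not given in the sources used here, so reads from that stretch cannot be assigned.

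Ranked by level per kilobase, the order in the soft library was Nid1, Lamb2, Lamc1, Lamb1, Hspg2, Nid2, Lama4, Agrn, Lama2 and Lama5. The values ran from 1369 for Nid1 down to 8.51 for Lama5. The neighbours Hspg2 and Nid2, at 228 each, and Lama4 and Agrn, at 159 and 153, did not differ beyond their counting intervals. In the intermediate library Hspg2 stood above Lamb1, at 501 against 463, and Lama4 and Agrn again overlapped. In the stiff library it also stood above Lamc1, at 747 against 710, and no neighbours overlapped. The order of the other 9 genes among themselves was the same in all 3 libraries. With the longest annotated transcript as the length, Agrn and Lama4 exchanged places in the soft library and the other 8 genes kept theirs.

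The 10 transcripts are long, and the ratios in these libraries followed transcript length. Over the genes with a mean of at least 50 and an annotated transcript, the stiff to soft log2 ratio had a median of -0.14 for the 580 transcripts under 1 kb, 0.05 for the 2833 of 4 to 6 kb, 0.13 for the 1199 of 6 to 8 kb and 0.21 for the 768 of 8 kb or more. The share of genes past the threshold upward was 1.03% in the shortest and 8.85% in the longest class. Of the 10 genes, 3 fell in the class of 4 to 6 kb, 4 in that of 6 to 8 kb and 3 in the longest. The shortest, Nid2, was longer than 72.0% of the transcripts and the longest, Hspg2, longer than 99.6%. Across 11699 genes, which share the libraries and their depth, the ratio of stiff to soft had a Spearman rho of 0.26 with transcript length and of 0.26 with transcript GC content. What gives rise to these trends was not tested.

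A local fit of the ratio on length gave a trend of 0.16 at the median of the 10 genes for stiff against soft. All 10 genes lay above that trend, by a median of 0.52 on the log2 scale. When GC content was added to the fit the trend at the 10 genes was 0.37, and 9 of 10 still lay above it, by a median of 0.30. Hspg2 then stood 0.61 above the trend, Lama4 0.67, Lamb1 0.48, Nid2 0.35, Lama2 0.30 and Nid1 0.29. Lamb2 and Lamc1 kept only 0.12 and 0.10, and Lama5, which is both long and rich in GC, kept 0.044. Agrn lay 0.46 below the trend at its length and GC content, so its sign reversed. With length and GC subtracted, none of the 10 genes passed the threshold of 1, against 2.13% of all genes upward. For the first step the median of the 10 genes above that trend was 0.087, with Hspg2 at 0.34 and Lama4 at 0.42, and for the second step it was 0.16, with Agrn at -0.52.

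**Figure D3:**
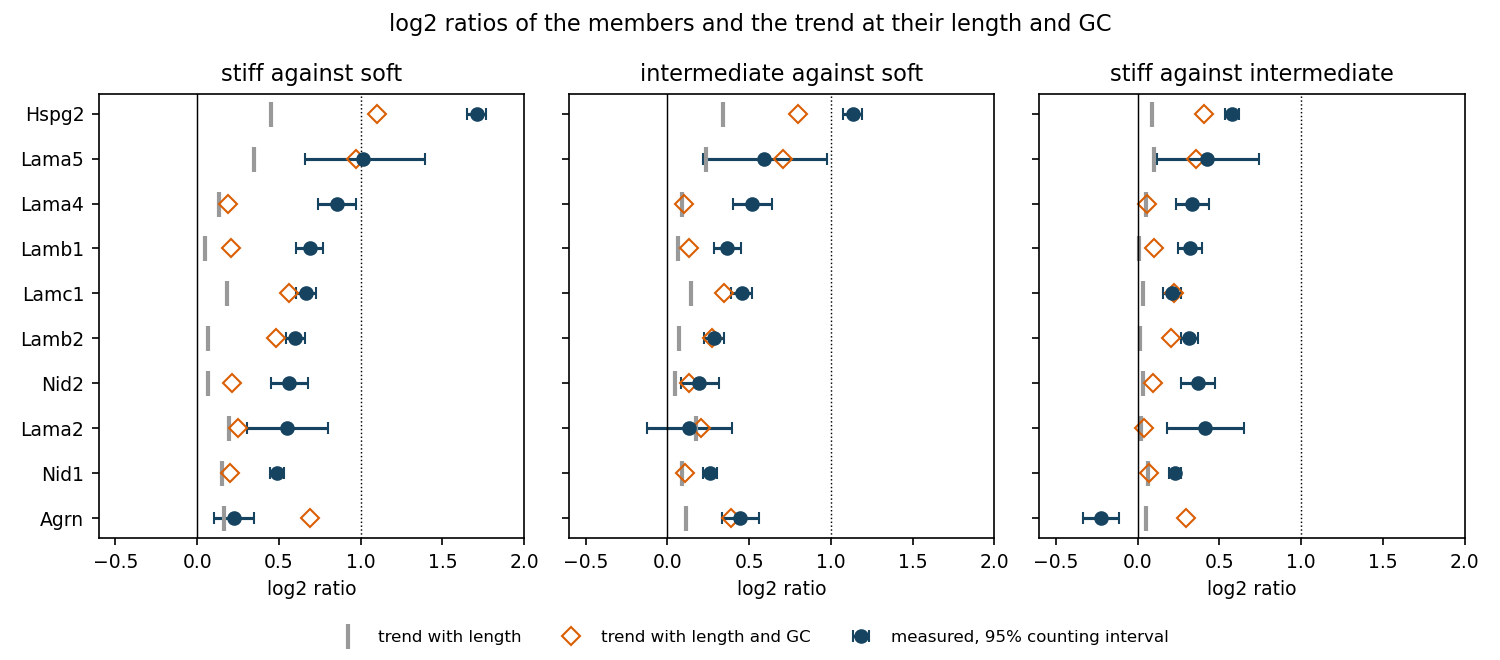
log2 ratios of the 10 genes in the 3 comparisons (points, with exact 95% Clopper-Pearson counting intervals), beside the trend fitted at the length of each transcript (grey bars) and at its length and GC content (open diamonds); the dotted line is the threshold of 1. For stiff against soft every point lies right of its grey bar, and only Agrn, at 0.22, lies left of its diamond.

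**Figure D4:**
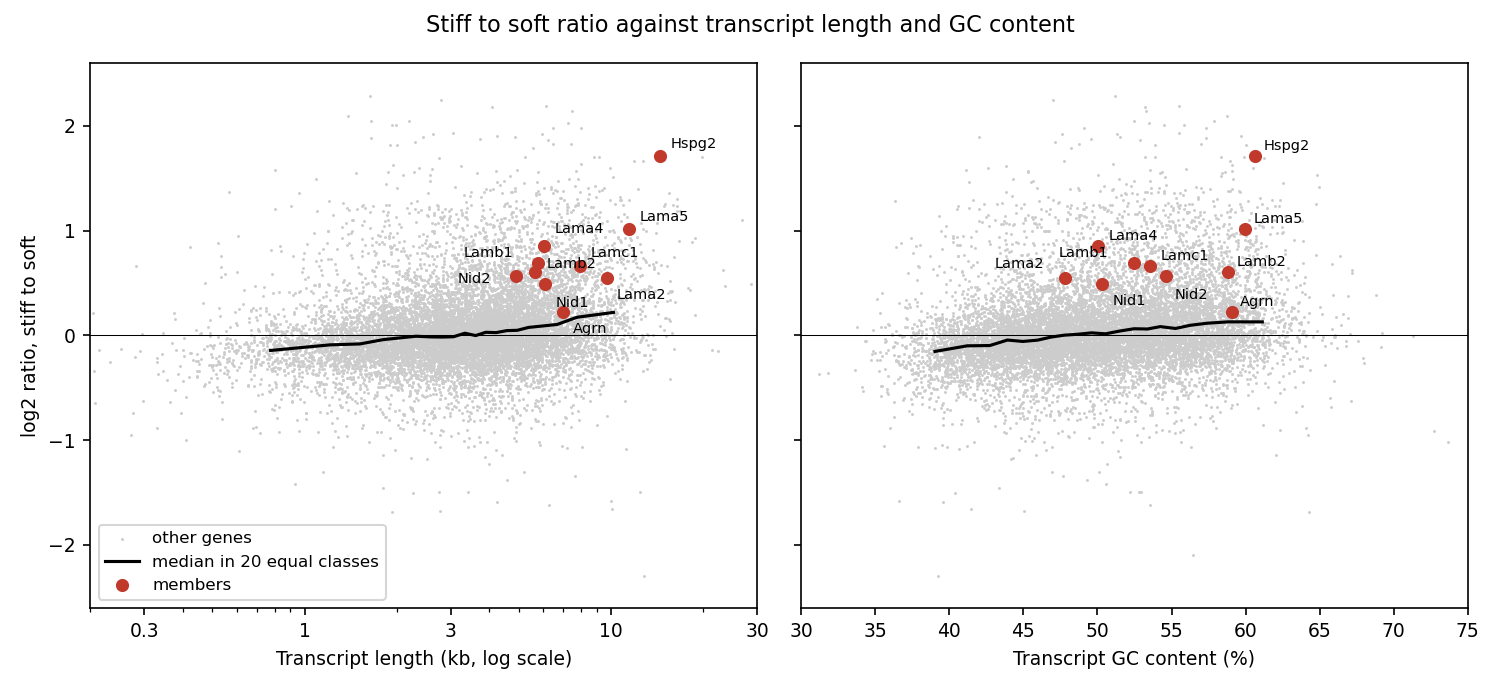
Stiff to soft log2 ratio of each gene with a mean of at least 50 (grey points) against transcript length (log axis) and transcript GC content, with the median in 20 equal classes (line) and the 10 genes (red). The line climbs with both properties and the 10 genes lie above it; 15 genes fall outside the left panel and 5 outside the right.

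Long and GC-rich transcripts as a class had higher ratios, so 4 of the 10 genes were set beside others of that kind. There were 139 other genes with a transcript of at least 5 kb and at least 58% GC, the class that holds Hspg2, Lama5, Lamb2 and Agrn. Their median log2 ratio of stiff to soft was 0.60, the middle 50% of them lay between 0.29 and 0.97, and 21.6% passed the threshold upward. None of the 139 had a ratio above that of Hspg2. Lama5 was exceeded by 30 of them, Lamb2 by 68 and Agrn by 116. Between intermediate and soft the median of the class was 0.35 and again none exceeded Hspg2, and 53 exceeded Agrn. Between stiff and intermediate the median was 0.24, 19 genes exceeded Hspg2 and 132 exceeded Agrn. Hspg2 thus stood at the top of its class in both comparisons with the soft library, Lamb2 lay near the middle, and Agrn lay in the lower part for stiff against soft. The class was not matched to the length of Hspg2. At Hspg2 the fitted trend with length and GC was 1.10 for stiff against soft, above the class median of 0.60.

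The partners of these proteins were taken from lists of related genes, counting those with a mean of at least 50. Among the collagens of basement membranes 5 of 8 genes were tested, 4 were higher and 1 lower in the stiff than in the soft library, and the median log2 ratio was 0.27. Col4a2 passed the threshold at 1.08 (interval 1.02 to 1.15), with 3201, 5030 and 6787 normalized counts at 0.2, 8 and 64 kPa. Col4a1, its partner in the common collagen IV trimer, stood at 3522, 4893 and 6016, a ratio of 0.77 (interval 0.71 to 0.83). Col4a5 had the lowest ratio of the list at -0.14 (interval -0.27 to -0.01). With length and GC subtracted, Col4a1 kept 0.20 and Col4a2 0.35, below the threshold, and the median of the list was -0.16.

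Of the receptors for laminin, perlecan and agrin 9 of 11 were tested, 8 were higher and 1 lower in the stiff library, with a median of 0.47, and none passed the threshold. With length and GC subtracted the median was 0.23. The highest without that subtraction was Itga3, the laminin-binding integrin alpha 3 chain, at 291, 327 and 544 normalized counts and a ratio of 0.90 (interval 0.69 to 1.11), or 0.53 with it. The lowest was Itga2, a collagen and laminin receptor, at -0.22 (interval -0.64 to 0.20). Dag1, which encodes dystroglycan, had a ratio of 0.30 without and 0.039 with the subtraction, and Itgb1, the beta chain of many laminin-binding integrins, 0.18 and 0.23.

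The enzymes that build the sugar chains had ratios nearer 0. Of 10 tested enzymes that glycosylate dystroglycan, 2 were higher and 8 lower, with a median of -0.05, or -0.16 with length and GC subtracted, and none passed the threshold. Their ratios ran from -0.13 to 0.11. Of 19 tested enzymes of heparan sulfate synthesis and editing, 12 were higher and 7 lower, with a median of 0.07, or -0.03 with length and GC subtracted, and none passed the threshold. The highest was Sulf2, which trims sulfate from heparan sulfate outside the cell, at 0.64 (interval 0.52 to 0.76), and the lowest was Hs3st1, a sulfotransferase, at -0.48 (interval -1.07 to 0.09). With length and GC subtracted Sulf2 was at 0.37 and Hs3st1 at -0.36, and Sulf1 at 0.41 and Extl3 at -0.92 were then the extremes.

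Other basement membrane and linker proteins had a median of 0.31 over 14 tested genes, of which 11 were higher and 3 lower, and none passed the threshold. With length and GC subtracted the median was 0.067. The highest was Npnt, an integrin ligand, at 0.89 (interval 0.65 to 1.13) and the lowest Hmcn2 at -0.41 (interval -0.98 to 0.13), which with the subtraction was -1.66 and past the threshold. Of 7 tested proteases that cut these proteins, 5 were higher and 2 lower, with a median of 0.075, or 0.020 with length and GC subtracted. Mmp3, a stromelysin, was lower in the stiff library at -1.14 (interval -1.16 to -1.11), past a threshold that 0.387% of all genes passed downward, with 43770.3, 33751 and 19886 normalized counts, and Ctss, a cathepsin of macrophages, was higher at 1.08 (interval 1.03 to 1.13). The levels of Ctss moved with the macrophage markers, whose median ratio was 1.26.

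**Figure D5:**
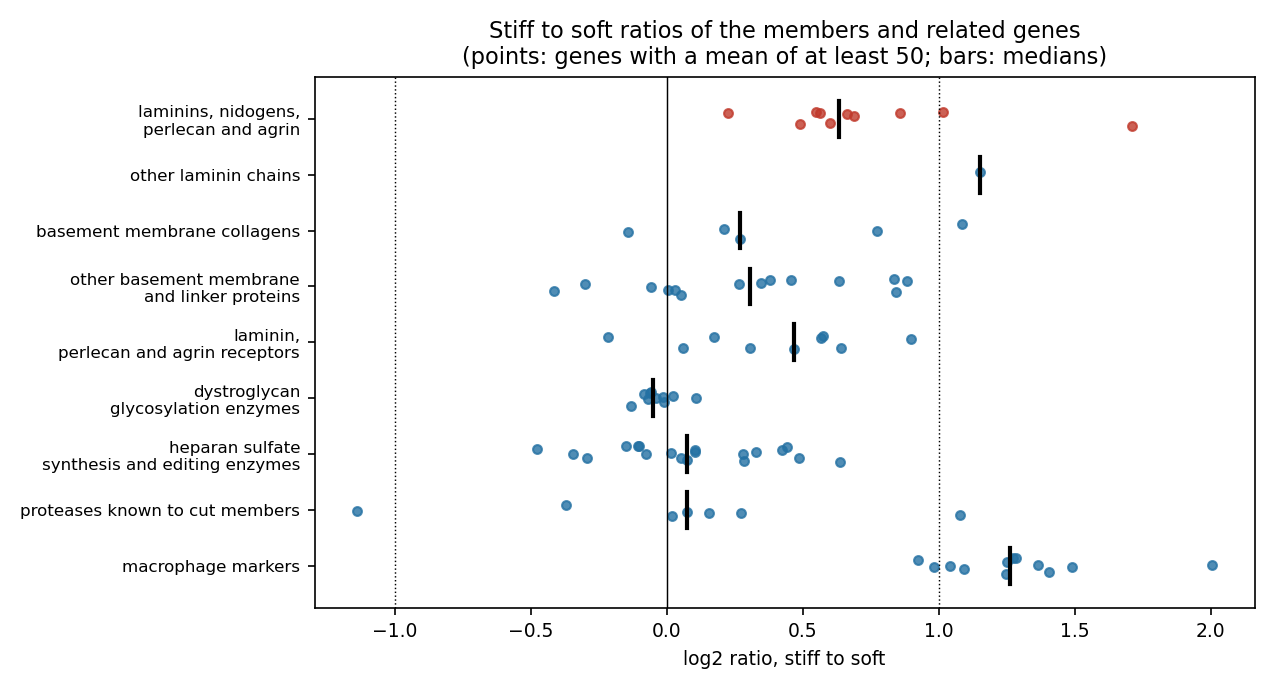
Stiff to soft log2 ratios of the 10 genes (red) and of the related lists and macrophage markers (blue), for genes with a mean of at least 50; black bars are medians and dotted lines the threshold of 1 in both directions. The 10 genes have a median of 0.63, the dystroglycan enzymes one of -0.05 and the macrophage markers one of 1.26.

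The genes nearest in pattern to the median of the 10 were found by the Euclidean distance between the log2 ratios of both steps, over 3 libraries and 10610 named genes with a mean of at least 100. They were Ltbp3, Clec12a, Chd8, Sp2 and Synrg, at distances of 0.010 to 0.026. Ltbp3 stood at 3436, 4579 and 5723 normalized counts at 0.2, 8 and 64 kPa, with steps of 0.41 and 0.32. With 3 libraries such likeness is common, and 120 genes lay within a distance of 0.1.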

How the data were processed

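The 3 deposited files hold the same table, of which 1 was used. Its signal values are gene counts that the authors divided by a size factor per library (DESeq2 1.34.0, per the submitters' processing notes, which also name bcl2fastq 2.20.0, STAR 2.7.9a, featureCounts of Subread 2.0.1 and GRCm39). The annotation is not given in the sources used here. All values were whole multiples (tolerance 0.001) of 1 read, worth 1.03 normalized counts at 0.2 and 64 kPa and 0.943 at 8 kPa, and reads were recovered by division. With 1 library per level, no count-based test was run, and intervals cover counting error of reads that are not independent molecules.

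Log2 ratios used a pseudocount of 1, which understates low genes. Called differences had a log2 ratio of at least 1 and a mean of at least 50. Length, GC content and positions are those of the GENCODE vM39 canonical transcript on GRCm39, matched for 11699 of 11873 genes (11655 by symbol, 44 by identifier). The trend at a gene was fitted by robust local linear regression on its 300 neighbours in log2 length, or in log2 length and GC content, the gene itself left out. The fit was checked on simulated data with a linear trend. Error from a curved trend, including at the edge of length and GC content where Hspg2 and Lama5 lie, was not checked. Named genes were the 10 genes, other laminin chains, the called, highest and lowest genes of 7 related lists, and the 5 nearest in pattern. Outside that rule, Col4a1, Dag1, Itgb1, Sulf1, Extl3 and the marker genes were named after their values were seen, and the extremes of the dystroglycan list are not named. The members, lists and classes were chosen with earlier results of these data known. Some genes of the lists are not reported here and were left out of the list values and chain sums. Alternatives were other pseudocounts, scalings, thresholds, minimum means and both trends. Python 3.11.15, numpy 2.4.6, pandas 2.3.3 and scipy 1.17.1 were used.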

Additional observations from a re-analysis of the deposited data

How the results depend on the processing

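No paired analysis was possible because each stiffness level has 1 library, and for the same reason no library was left out. Pseudocounts of 0.1 and 10 left all 30 single ratios of the 10 genes inside their counting intervals. The 3 other scalings, which moved the median of all genes by -0.06 at most, reversed none but put 1, 1 and 3 of the 30 outside their intervals. Subtracting the length trend changed the stiff to soft median to 0.52. Subtracting length and GC, which raised the trend at the 10 genes from 0.16 to 0.37 (chosen after seeing the data), gave medians of 0.30 for stiff against soft, 0.087 for intermediate against soft and 0.16 for stiff against intermediate. That subtraction reversed 4 of the 30 single ratios, put 22 of the others outside their counting intervals and left 4 inside. The reversed ones were Agrn stiff to soft (-0.46), Lama5 (-0.11) and Lama2 (-0.068) intermediate to soft, and Lamc1 stiff to intermediate (-0.010). With length alone Lama2 intermediate to soft reversed, at -0.040, and 12 of the other ratios left their intervals. The 2 genes past the threshold for stiff against soft became 1 with a pseudocount of 10, under the 3 scalings, with length subtracted and at a ratio of 1.5, 0 with length and GC subtracted, and 8 at a ratio of 0.5. The 1 gene for intermediate against soft became 0 with either trend subtracted and at 1.5, and 3 at 0.5, and the 0 for stiff against intermediate became 1 at 0.5. The 1 gene moving up by 0.5 in both steps became 5 at 0.25, and 0 at 1 and with either trend subtracted. Over all genes, minimum means of 10, 200 and none gave 822, 238 and 5827 genes past the threshold for stiff against soft, in place of 428. They gave 215, 8 and 3646 in place of 20 for the first step, and 451, 72 and 3904 in place of 148 for the second, by construction of the filter. Apart from the thresholds and filters, the cause was not tested. Depth limits Lama5 and Lama2 most, with 95 and 231 reads in the soft library.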
